A study of Mus musculus with 2 samples.

Results

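Resident-type C1q macrophages of the mouse aorta were taken as the cells that carried complement C1q transcripts together with transcripts of a resident gene set. A cell was a member when it held at least 5 UMIs (unique molecular identifiers, each counted as 1 captured RNA molecule) of C1qa, C1qb and C1qc summed, at least 2 UMIs of Lyve1, Folr2, F13a1 and Cbr2 summed, at most 2 UMIs of the T cell genes Cd3d, Cd3e and Cd3g, and at most 2 of the B cell genes Cd79a, Cd79b and Ms4a1. Of 2957 kept cells, 140 were members: 26 of 896 in the chow library and 114 of 2061 in the WD library. The members were chosen by measured values of these genes, so levels of the C1q and the 4 resident genes are given as a description.

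Macrophages that settle in the adventitia and around vessels share a set of surface receptors and secreted proteins, among them the hyaluronan receptor Lyve1, the folate receptor Folr2, the mannose receptor Mrc1 and the haemoglobin scavenger receptor Cd163. They are known for uptake of debris and of modified proteins, for making C1q, the first component of the classical complement pathway, and for living in tissue for long periods, where they renew themselves more than macrophages derived from recent monocytes. In atherosclerotic lesions they stand beside foam cells, which take up lipid and express genes such as Spp1 and Trem2, and beside inflammatory macrophages that make interleukin 1 beta.

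Both libraries came from aortas of ApoE-/- mice on the C57BL6/J strain, which lack apolipoprotein E and are prone to atherosclerosis, so all cells described here carry that deletion, controls included. The mice of 1 group ate a chow diet and those of the other a diet that the labels call WD, a name they do not spell out. The labels give neither the age of the mice nor the length of feeding in the fields used here. Leukocytes were freed from the aortas by enzymatic digestion and sorted as viable CD45+ cells, and each diet gave 1 droplet library from a pool of 10 aortas. Each diet therefore has 1 library, no difference between diets has a replicate check, and every interval below is an exact 95% interval that covers counting error only.

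The chow library held 909 barcodes with 4608033 UMIs and the WD library 2077 barcodes with 8782901 UMIs, of which 13 and 16 barcodes were removed for under 200 genes or over 10% mitochondrial UMIs. The libraries shared 3 barcodes, none of them among the members. Members held 166309 UMIs in the chow library and 599191 in the WD library. The median member held 5815.5 UMIs (2653 to 16154) and 1778.5 genes in the chow library, and 4681.5 UMIs (1451 to 13733) and 1604.5 genes in the WD library. Apoe itself gave 10 UMIs in 8 chow members and 38 UMIs in 25 WD members, 60.1 and 63.4 CPM (UMIs per 1000000 UMIs of the class in that library); the counted 3' tag may lie outside the deleted part, so these counts check nothing about the genotype.

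Macrophage genes outside the rule were then described in the members. Pf4, a chemokine that is made by platelets and also marks resident macrophages, had UMIs in 21 of 26 chow members (80.8%, 60.6 to 93.4%) and in 96 of 114 WD members (84.2%, 76.2 to 90.4%), against 1.85% and 0.578% of the cells in a B cell gate that served as a measure of free RNA. B-gated cells were shallower, with median UMI counts of 2942.5 and 2487, and up to 80 UMIs of C1qa, Pf4, Lyve1 and Folr2 in 1 such cell mark some of them as possible doublets. After thinning every cell to 2000 UMIs, with 9 shallower WD members left out, Pf4 had UMIs in 73.1% and 74.3% of members. Pf4 was among the markers named with this label from these same data, so its rates are a description and not an independent check. Csf1r, the receptor of the macrophage growth factor CSF1, was found in 26 of 26 and 105 of 114 members, the macrophage antigen gene Adgre1 in 23 and 90, and Mrc1 in 24 and 99. C1q cells with at most 1 UMI of the resident genes held Csf1r in 95.2% and 82.5% and Adgre1 in 71.4% and 70.1%. Those genes were thus common in both kinds of C1q cell. Mrc1 was found in 38.1% and 40.2% of those cells and Pf4 in 28.6% and 30.9%. Genes of the most specialised resident macrophages were found in fewer members: Cd163 in 7 and 44, Timd4, a receptor for dying cells, in 5 and 13, and the complement receptor Vsig4 in 1 and 3.

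Markers of most other cells were low in the members, with the monocyte marker Ccr2 as an exception. Platelet markers gave 2 UMIs in the chow library and 3 in the WD library, with Itga2b, Gp9 and Gp1ba at 0, so few other platelet transcripts came with the Pf4 of the members. Lymphatic endothelium, which also expresses Lyve1, left Prox1, Flt4, Ccl21a, Mmrn1 and Reln at 0 in both libraries. All 8 mast cell and basophil markers and all 6 adipocyte and mesothelium markers were at 0. The 10 dendritic cell markers summed to 24.1 and 38.4 CPM, and 10 monocyte markers to 667 and 966. Ccr2 had UMIs in 14 of 26 chow and 52 of 114 WD members (53.8% and 45.6%). In C1q cells with at most 1 UMI of the resident genes, its rates were similar, at 61.9% and 42.3%. The monocyte markers summed to 817 and 912 CPM in those cells. T cell markers differed between the libraries: 10 genes summed to 204 CPM in chow members and 88.5 in WD members, and 10 of 26 and 8 of 114 members held a Cd3d, Cd3e or Cd3g UMI. The part of T cell RNA in the differences between diets was not tested, and Scrublet, a doublet caller run on each library, called 4 and 2 barcodes, none of them members, which is below its expected rates of 0.727% and 1.66%.

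The 4 resident genes of the rule were not spread alike over the members. F13a1, which encodes a subunit of coagulation factor XIII and is also expressed by monocytes, had UMIs in 25 of 26 chow and 101 of 114 WD members. Folr2 was found in 19 and 86 members, Cbr2, a carbonyl reductase, in 17 and 87, and Lyve1 in 12 and 42. All 4 genes were found together in 10 chow and 36 WD members, and 4 and 16 members passed on a single gene. That gene was F13a1 in 3 and 8 members and Cbr2 in 1 and 5. Cells just inside the limit, with a resident sum of 2, numbered 3 and 11, and cells just outside it, with a sum of 1, numbered 2 and 21; the median member held 6 and 8 such UMIs. The C1q limit separated the cells clearly, with members holding a median of 73 UMIs (25 to 252) in the chow library and 90 (5 to 296) in the WD library, and only 1 cell each at sums of 4 (chow) and 5 (WD). A further 6 chow and 14 WD cells met the C1q and resident limits but were left out by the T or B cell limit.

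Members were more frequent in the WD library. They made up 2.90% of kept chow cells (1.90 to 4.22%) and 5.53% of kept WD cells (4.58 to 6.61%), a ratio of 1.91 (1.24 to 3.04). The other C1q cells, which met the same limits but held a resident sum of 0 or 1 and are called low-resident here, were 2.34% and 4.71%, a ratio of 2.01 (1.24 to 3.39). Members were a similar part of all C1q cells in both libraries, 26 of 47 in the chow library (55.3%, 40.1 to 69.8%) and 114 of 211 in the WD library (54.0%, 47.1 to 60.9%), a ratio of 0.977 (0.633 to 1.56). Shares of 1 library add up to the whole, so a share among kept cells also moves with the number of other leukocytes. The rule's depth dependence touches the second share: with every cell thinned to 2000 UMIs, members were 33.3% and 44.2% of C1q cells.

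Outside the rule genes and apart from ribosomal and mitochondrial transcripts, the genes with the most UMIs in the members were the nuclear RNA Malat1 and the antigen presentation chaperone Cd74 (the MHC class II invariant chain). Lyz2, the macrophage lysozyme, gave 3573 UMIs in the chow library and 10535 in the WD library, 21484 and 17582 CPM. The ferritin genes Ftl1 and Fth1, which store iron, and the MHC class II genes H2-Ab1, H2-Aa and H2-Eb1 were among the first 10, as was the neutrophil chemokine Cxcl2. Selenop, which encodes a secreted selenium carrier, gave 3734 and 3828 CPM and was found in 25 of 26 and 112 of 114 members.

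Resident-type and low-resident C1q cells were then compared within each library, which asks what else accompanies the resident gene set among macrophages. The split between these classes was made on the resident genes in the same cells, so the differences are a description. Of 1981 genes with at least 20 UMIs over both classes in each library, 60 were at least 2-fold higher in members in both libraries (3.03%) and 48 were at least 2-fold lower (2.42%). A list of resident and perivascular macrophage genes, chosen with earlier results of these data known and without the rule's genes, had 13 of 18 measured genes past 2-fold higher and 0 lower. Its median log2 ratio was 2.24 in the chow library and 1.93 in the WD library, beside medians of -0.03 and -0.08 over all genes. The genes were Pf4, Cd163, Mrc1, Gas6, Fcgrt, Mgl2, Clec10a, Selenop, Maf, Wwp1, Ccl24, Ltc4s and Fxyd2.

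**Figure D1:**
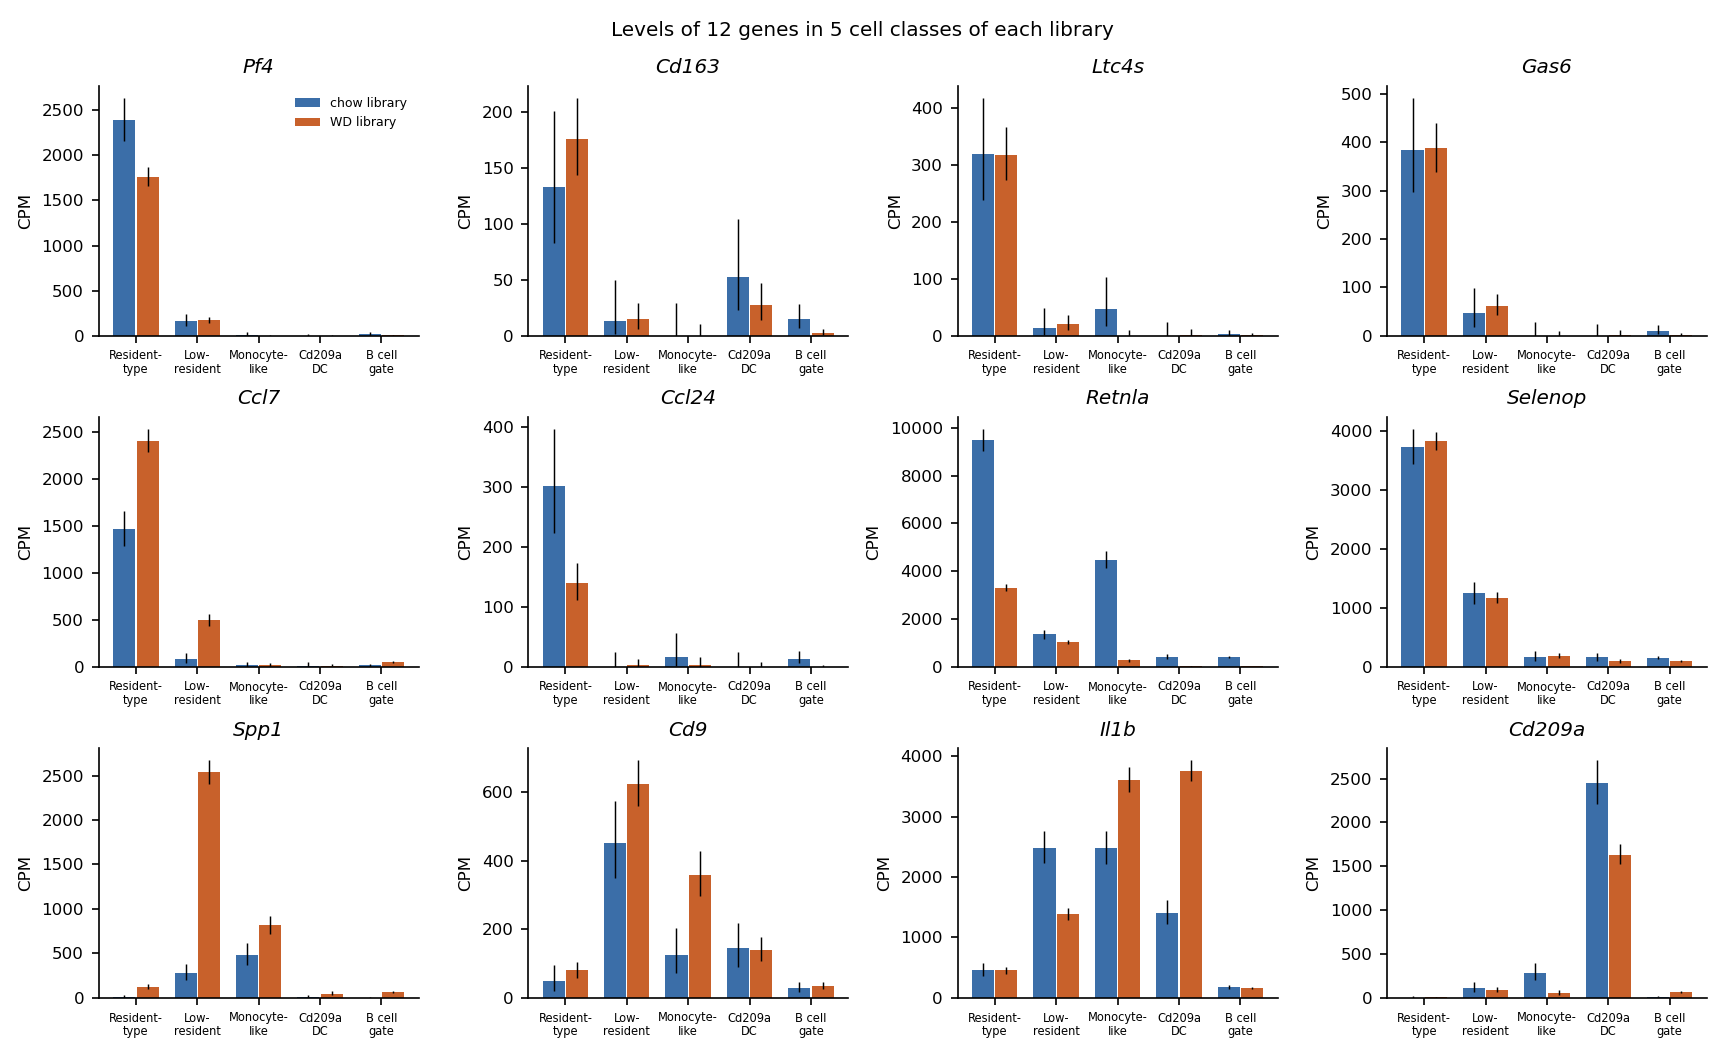
Levels of 12 genes in resident-type C1q cells, low-resident C1q cells, monocyte-like cells, Cd209a dendritic cells and B-gated cells of the chow (blue) and WD (orange) library, in CPM (UMIs per 1000000 UMIs of the class), with exact 95% counting intervals as bars. Pf4, Cd163, Ltc4s, Gas6, Ccl7, Ccl24 and Selenop stand highest in the resident-type cells of both libraries, while Spp1, Cd9 and Il1b are lower there than in low-resident cells.

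Among secreted and enzyme genes, Pf4 gave 2387 CPM (2158 to 2634) in chow members and 1761 (1656 to 1870) in WD members, against 165 and 171 in low-resident cells. The ratios were 14.5 (9.60 to 22.9) and 10.3 (8.33 to 12.9). Ltc4s, the enzyme that makes leukotriene C4, stood at 319 and 317 CPM in members and at 13.7 and 20.2 in low-resident cells, ratios of 23.2 (6.12 to 197) and 15.7 (8.57 to 32.0). Its level was thus nearly the same in the members of both diets. Gas6, a bridging ligand between dying cells and the receptor Axl, gave 385 and 387 against 48.0 and 62.5, ratios of 8.01 and 6.20. Axl itself went the other way, at 42.1 and 95.1 CPM in members and 151 and 173 in low-resident cells. Igfbp4, which binds insulin-like growth factors, had ratios of 5.88 and 5.08, and Fxyd2, a regulator of the sodium pump, had ratios of 25.8 (6.84 to 218) and 15.9 (7.06 to 44.3).

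Of the receptors, Cd163 gave 22 and 105 UMIs in members and 2 and 8 in low-resident cells, ratios of 9.64 (2.37 to 84.5) and 11.9 (5.83 to 28.3). Mrc1 had ratios of 4.72 (2.84 to 8.30) and 3.34 (2.59 to 4.35), and the fatty acid receptor Cd36 of 4.96 (2.06 to 14.5) and 4.05 (2.53 to 6.75). All 3 stood higher in members of both diets. Fcgrt, the neonatal Fc receptor that recycles immunoglobulin G, had ratios of 3.67 and 4.58. In the list of scavenger and endocytic receptors, 5 of 15 measured genes were past 2-fold higher (3.03% of all genes were) and 0 lower. The other 3 besides Mrc1 and Cd163 were Cd36 and the lectins Mgl2 and Clec10a. Clec10a was also found outside macrophages and stood at 390 and 399 CPM in Cd209a dendritic cells and at 120 and 197 in members. Without the richest member of each library it was not past 2-fold above low-resident cells in both. The transcription factor Maf, which is known from self-renewing macrophages, had ratios of 6.13 (2.59 to 17.7) and 3.45 (2.46 to 4.92).

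Complement genes beyond C1q went the same way. C4b, which encodes a complement component cleaved by the C1 complex, gave 20 and 106 UMIs in members against 1 and 5 in low-resident cells, ratios of 17.5 (2.80 to 726) and 19.3 (8.0 to 60.5). Cfp, properdin, a stabiliser of the alternative pathway convertase, had ratios of 2.18 (1.59 to 3.02) and 2.88 (2.36 to 3.53). Of 9 measured complement genes 3 were past 2-fold higher in both libraries (3.03% of all genes were), C4b and Cfp among them, and 0 lower. Cfp was not past 2-fold in both without the richest member of each library. The complement peptide receptors C5ar1 and C3ar1 stayed within 2-fold, with ratios of 1.39 and 1.84 for C5ar1 and 1.31 and 1.13 for C3ar1.

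Chemokine genes went both ways. In the chemokine list 6 of 13 measured genes were past 2-fold higher in both libraries (Pf4, Ccl2, Ccl6, Ccl7, Ccl24 and Cxcl1) and 2 lower (Ccl4 and Cxcl16). Of all genes, 3.03% were higher and 2.42% lower. The Cxcl1 call rested on the richest chow member, which held 116 of 139 UMIs: without it members held 23 Cxcl1 UMIs against 22 in low-resident cells, a ratio of 0.962 (0.513 to 1.81). Ccl7, a ligand that draws monocytes through Ccr2, gave 1461 and 2403 CPM in members against 82.4 and 496, ratios of 17.7 (9.97 to 34.8) and 4.84 (4.25 to 5.54). Ccl2, the main Ccr2 ligand, had ratios of 5.53 and 2.50. Ccl24, an eosinophil attractant, gave 50 UMIs in 14 chow members and 84 UMIs in 35 WD members. Low-resident cells held 0 and 2 Ccl24 UMIs, so the chow level was at least 14.6-fold higher in members, against a floor of 3 counts per class, and the WD ratio was 38.1 (10.2 to 320). Ccl4, an inflammatory chemokine, stood lower in members, with ratios of 0.461 (0.395 to 0.537) and 0.478 (0.447 to 0.511). Without the richest low-resident cell Ccl4 was not past 2-fold in both libraries. Without the richest 3 cells of the higher class, Ccl6 and Cxcl16 were not past 2-fold in both libraries either. Cxcl2 stood higher in members, at 9903 and 7427 CPM against 5161 and 4885 in low-resident cells. Early response genes, which digestion of tissue can induce, also stood higher in members than in low-resident cells: their share of UMIs (Fos, Jun, Junb, Egr1, Atf3, Hspa1a and Hspa1b) had medians of 1.49% and 1.88% in members and 0.708% and 0.801% in low-resident cells, and the part of digestion in the chemokine levels was not tested. From member to member their share and that of Ccl2, Ccl7, Ccl8 and Ccl12 had Spearman coefficients of -0.06 over 26 chow cells and 0.10 over 114 WD cells, a description of cells that share a library.

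Several genes of lipid-laden macrophages, and Il1b among inflammatory genes, were lower in the members. Of 17 measured genes of a Trem2 foam cell list, 0 were past 2-fold higher and 6 lower (2.42% of all genes were lower). The 6 were Spp1, Cd9, Lgals3, Acp5, Mmp12 and Cd72. Spp1, osteopontin, gave 1 UMI in chow members and 74 UMIs in WD members against 41 and 1381 in low-resident cells, ratios of 0.0214 (0.000528 to 0.126) and 0.0487 (0.0380 to 0.0615). The tetraspanin gene Cd9 had ratios of 0.106 (0.0440 to 0.222) and 0.128 (0.0927 to 0.174), and Lgals3, galectin 3, of 0.290 and 0.239. Few low-resident cells carried this Spp1: 3 WD cells held 81.5% of the 1381 UMIs, and 1 of them 639. Without those 3 cells the WD ratio was 0.248 (0.189 to 0.322), and without the richest 3 chow low-resident cells the chow ratio was 0.116 (0.00253 to 0.959). Mmp12, macrophage elastase, gave 1 and 4 UMIs in members against 64 and 108. Trem2 itself was lower by less, at 192 and 214 CPM in members against 343 and 382, ratios of 0.561 (0.348 to 0.891) and 0.559 (0.445 to 0.700). Il1b had ratios of 0.186 (0.144 to 0.239) and 0.330 (0.286 to 0.379). The inflammatory list as a whole differed less, with 2 of 17 measured genes past 2-fold lower (Il1b and Tnip3), 0 higher and medians of -0.19 and -0.46. Nfkbiz, an inhibitor-like regulator of NF-kappa B, stood higher in members, with ratios of 2.59 and 1.23. AA467197, a gene of unsettled role also known as Nmes1, had 0 and 2 UMIs in members against 46 and 116, at least 17.5-fold lower in the chow library.

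**Figure D2:**
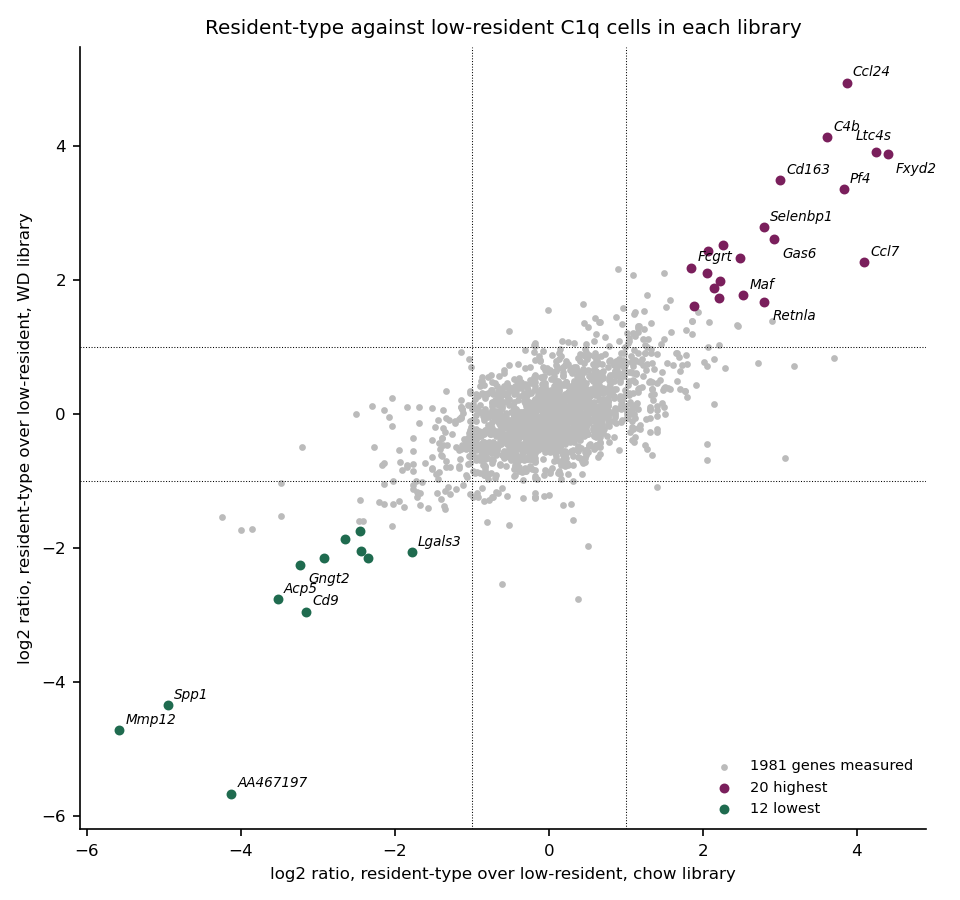
Log2 ratio of resident-type over low-resident C1q cells in the chow library (horizontal) and in the WD library (vertical) for 1981 genes, with the 20 highest genes in purple and the 12 lowest in green, ranked by the library with the smaller difference. A class at 0 UMIs is drawn at its floor of 3 counts, and dotted lines mark 2-fold; Ccl24, Ltc4s, Fxyd2, C4b and Pf4 lie among the highest and AA467197, Mmp12 and Spp1 among the lowest in both libraries.

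Against other myeloid cells the members differed more widely. Of 1936 genes, 147 were at least 2-fold higher in members than in monocyte-like cells (those with Thbs1 and F10) in both libraries (7.59%) and 146 lower (7.54%). Of 1988 genes, 217 were higher than in Cd209a dendritic cells (10.9%) and 105 lower (5.28%). The resident list had 16 of 19 genes past 2-fold higher and 0 lower against monocyte-like cells, and 14 higher and 2 lower against dendritic cells. Lysosome genes separated members from dendritic cells, with 15 of 28 past 2-fold higher and 0 lower, but not from low-resident cells, with 0 higher and 1 lower. Trem2 foam cell genes, lower than in low-resident cells, were higher than in dendritic cells for 9 of 11 measured genes. The 8 neutrophil markers gave 1934 and 15640 UMIs in monocyte-like cells and 7 and 42 in members, and their part in that comparison was not tested.

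MHC class II transcripts varied widely from member to member. H2-Aa, H2-Ab1, H2-Eb1 and Cd74 together took from 0.0285% to 12.6% of a member's UMIs in the chow library, with a median of 5.25%, and from 0 to 13.9% in the WD library, with a median of 4.51%. In low-resident cells the medians were 9.34% and 5.22%. Across members the share of these genes ran against that of Lyve1, with a Spearman coefficient of -0.56 over 26 chow cells and -0.29 over 114 WD cells, and against that of Pf4, with -0.48 and -0.31. Cells of 1 library share its depth and its free RNA, so the coefficients are a description. No member of the MHC class II list was past 2-fold between diets in the members, and the list median was 0.10.

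**Figure D3:**
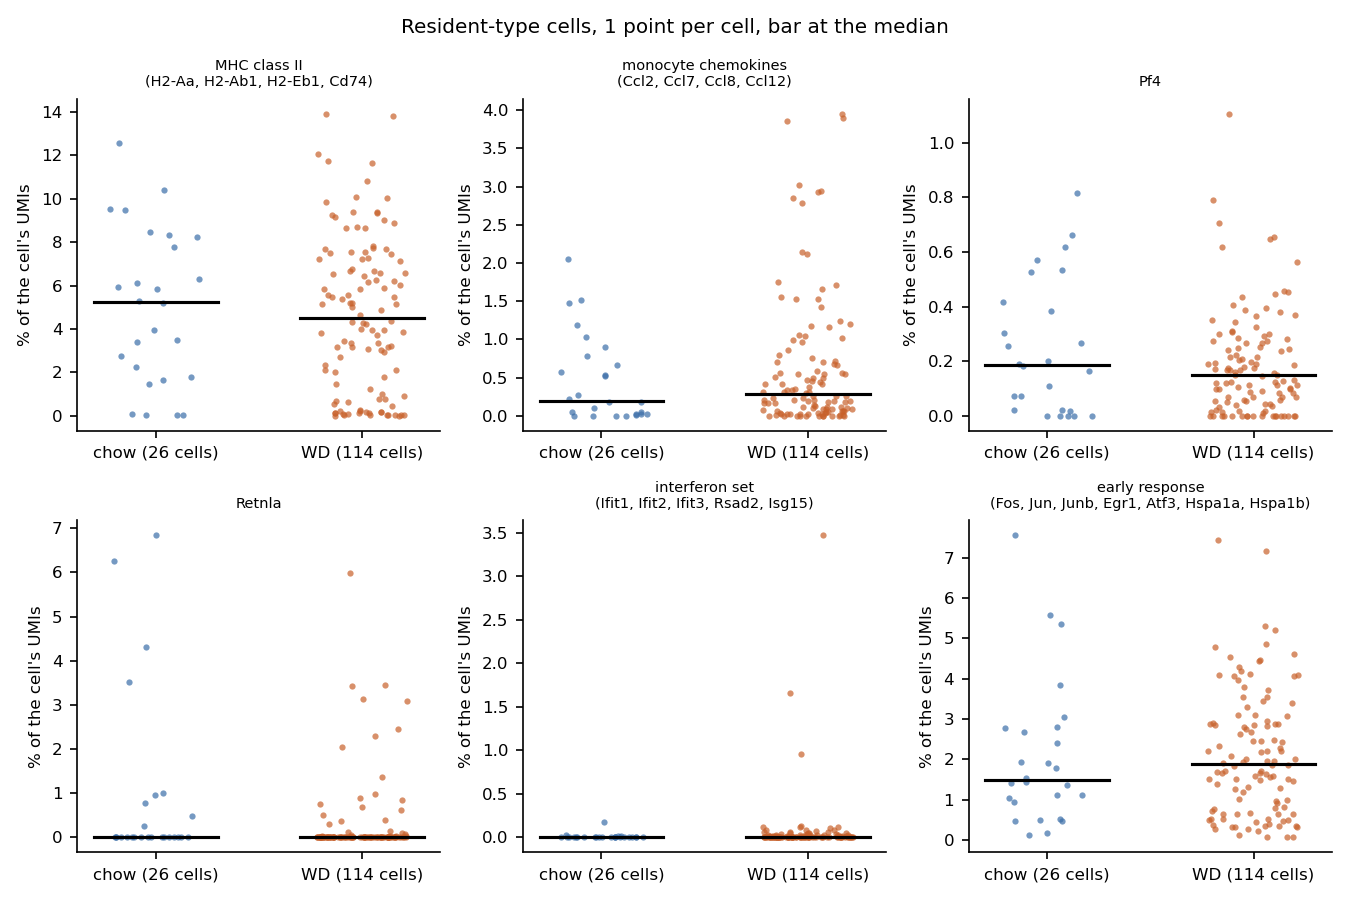
Share of each resident-type cell's UMIs taken by 6 genes or gene sets, in percent, with 1 point per cell (26 chow, 114 WD) and a bar at the median. MHC class II genes spread from near 0 to 13.9%, and Retnla and the interferon set sit at 0 in most cells with a few cells far above.

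The members of both diets were then compared by summing UMIs per library. Among 4075 genes whose UMIs in the members of both libraries summed to 20 or more, 307 were at least 2-fold higher in WD members (7.53%) and 177 at least 2-fold lower (4.34%), and the median log2 ratio over all genes was 0.02. These counts describe 26 cells of 1 library against 114 cells of the other. Most resident genes stayed within 2-fold between the diets, and the resident list had a median of 0.00. Of its 23 measured genes, 1 was past 2-fold higher (4.35%) and 4 lower (17.4%), beside 7.53% and 4.34% of all genes. Gas6, Ltc4s, Selenop and Mgl2 had WD over chow ratios between 0.995 and 1.03. Pf4 was lower in WD members, with a ratio of 0.738 (0.657 to 0.830). The 4 lower genes were Timd4, Cd209f, Ccl24 and Fxyd2, and the higher gene was Ccl8.

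Interferon response genes formed the list that stood highest in the WD members. Of 17 measured genes, 11 were past 2-fold higher and 0 lower (64.7% against 7.53% of all genes), with a median log2 ratio of 1.01. Among the 11 were the interferon-induced Ifit1, Ifit3, Rsad2, Oasl2, Oas1a, Bst2, Ly6e and Xaf1, the transcription factor Irf7, and Usp18, which damps interferon receptor signalling. The intervals of Usp18 and Xaf1 included a ratio of 1. In the same comparison low-resident cells had 0 of 14 genes past 2-fold and a median of 0.11, monocyte-like cells 5 of 15 and 0.22, Cd209a dendritic cells 5 of 13 and 0.69, and B-gated cells 3 of 17 and 0.16. Of all measured genes, 8.51% were past 2-fold higher in low-resident cells and 7.46% in monocyte-like cells. That share was 8.42% in Cd209a dendritic cells and 3.10% in B-gated cells. The list stood above it with 33.3% in monocyte-like, 38.5% in dendritic and 17.6% in B-gated cells. Whether the difference between diets itself differed between these classes was not tested.

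Levels of the leading interferon genes were as follows. Ifit1 gave 1 UMI in chow members (6.01 CPM, 0.152 to 33.5) and 101 UMIs in 9 WD members (169, 137 to 205), a ratio of 28.0 (4.92 to 1118). Rsad2, viperin, gave 0 UMIs in chow members and 77 UMIs in 10 WD members, at least 7.12-fold higher. Ifit3 gave 1 and 47 UMIs, a ratio of 13 (2.23 to 526). These wide intervals come from the 0 or 1 UMI of the 26 chow cells. More abundant genes of the list gave closer ratios. Ly6e, a membrane protein gene, gave 94 UMIs in 17 chow members and 759 in 97 WD members, 565 and 1267 CPM, a ratio of 2.24 (1.81 to 2.81). Bst2, tetherin, gave 174 and 350 CPM, a ratio of 2.01 (1.36 to 3.08), and Irf7 48.1 and 125, a ratio of 2.60 (1.25 to 6.25). Ifi27l2a and Ifitm3, present in nearly all members, had ratios of 1.79 (1.60 to 2.01) and 1.44 (1.28 to 1.62), and Ifi204 was the 1 measured gene below 1, at 0.800 (0.559 to 1.16). The cytosolic RNA sensor gene Ifih1 (1 and 52 UMIs) and the interferon-inducible GTPase gene Ifi47 (1 and 38 UMIs), both outside the list, had UMIs in 22 WD members each. B-gated cells held 0 and 9.42 CPM of Ifit1 and 0 and 29.4 CPM of Rsad2, and the part of free RNA in these differences was not tested.

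A few cells held much of this signal. Members with at least 5 UMIs of Ifit1, Ifit2, Ifit3, Rsad2 and Isg15 numbered 1 of 26 in the chow library (3.85%, 0.0973 to 19.6%) and 12 of 114 in the WD library (10.5%, 5.56 to 17.7%), and these intervals overlap. A single WD cell held 164 of the 327 UMIs of the set in WD members (50.2%). Without that cell 10 interferon genes stayed past 2-fold and the median was 1.02. Low-resident cells with such counts numbered 2 of 21 (9.52%) and 8 of 97 (8.25%). The transcripts of the interferon receptor subunit Ifnar2 were near level between diets, at 150 and 175 CPM.

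**Figure D4:**
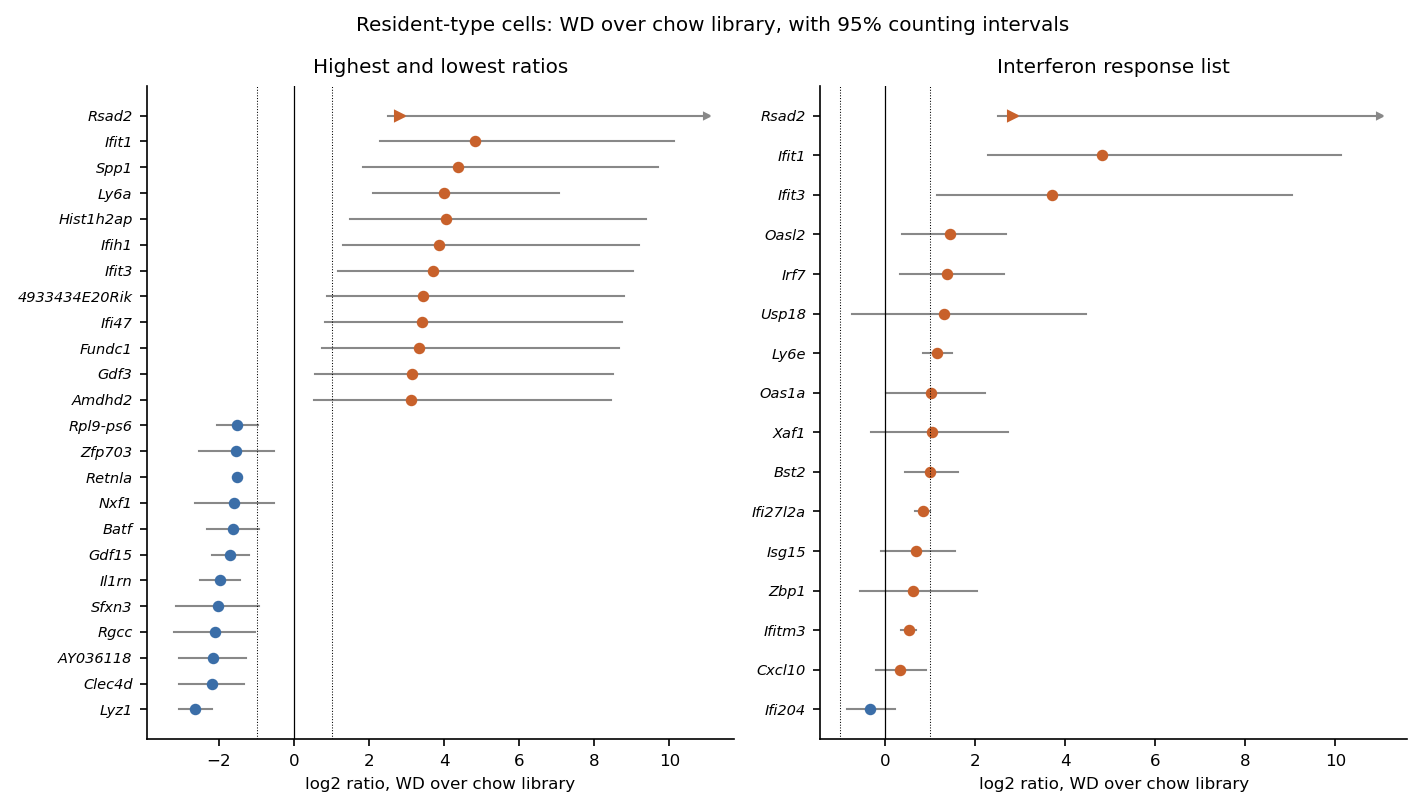
Log2 ratio of WD over chow resident-type cells, with exact 95% counting intervals, for the 12 highest and 12 lowest genes of the naming rule (left) and for 16 of the 17 measured genes of the interferon response list (right). Triangles are lower bounds where the chow library held 0 UMIs (its interval has no upper end), and dotted lines mark 2-fold; every interferon gene drawn but Ifi204 lies above 0.

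The promoters of the leading interferon genes are shown because they hold the core of the element bound by interferon-activated factors, which reads GAAA, then any 2 bases, then GAAA. Each is the 250 bases before the start of the gene in RefSeq on GRCm38.p6 (the assembly also called mm10, which the files use), given 5' to 3' on the strand of the gene, with matches on either strand in capitals. The Ifit1 promoter is chr19:34640639-34640888 on the plus strand, with matches 104 and 85 bases before the start. The Ifit3 promoter is chr19:34583279-34583528 on the plus strand, with matches 156 and 122 bases before the start. The Rsad2 promoter is chr12:26456453-26456702 on the minus strand, with 1 match 120 bases before the start.
Ifit1: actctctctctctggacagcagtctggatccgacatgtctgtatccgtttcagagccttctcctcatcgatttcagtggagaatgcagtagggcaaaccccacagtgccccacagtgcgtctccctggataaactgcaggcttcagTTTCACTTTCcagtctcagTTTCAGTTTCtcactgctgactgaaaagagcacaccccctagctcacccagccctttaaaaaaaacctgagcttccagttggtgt
Ifit3: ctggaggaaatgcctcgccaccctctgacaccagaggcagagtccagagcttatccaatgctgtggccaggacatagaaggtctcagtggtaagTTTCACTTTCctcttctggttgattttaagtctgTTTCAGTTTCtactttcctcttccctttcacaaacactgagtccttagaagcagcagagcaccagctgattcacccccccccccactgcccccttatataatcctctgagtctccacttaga
Rsad2: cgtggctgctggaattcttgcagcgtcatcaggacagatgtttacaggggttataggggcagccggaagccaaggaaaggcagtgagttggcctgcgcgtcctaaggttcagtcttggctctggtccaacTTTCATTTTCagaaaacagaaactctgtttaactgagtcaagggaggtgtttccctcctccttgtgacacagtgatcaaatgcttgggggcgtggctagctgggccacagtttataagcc
All matches in these windows read TTTC first, so the motif lies on the strand opposite to the gene. Of 32851 RefSeq promoters of this length, 978 held the motif on either strand (2.98%). Of the 24 interferon list genes, 17 had a promoter among these, whatever their UMIs here. The motif was held by 10 of them in at least 1 promoter (58.8% of the 17, 41.7% of the 24). The first share counts promoters and the others count genes, so they are not on the same unit. A match is a description of the letters and not a measured binding site.

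Retnla, a secreted protein gene of alternatively activated macrophages, had the most UMIs of the genes past 2-fold higher in the chow members. It gave 1576 UMIs in 9 of 26 chow members and 1979 UMIs in 30 of 114 WD members, 9476 CPM (9014 to 9956) against 3303 (3159 to 3452), a WD over chow ratio of 0.349 (0.326 to 0.373). Counts were bunched in few cells: the 3 richest cells held 62.4% of the chow UMIs and 42.4% of the WD UMIs. Without the richest 3 chow cells the ratio was 0.830 (0.757 to 0.911). The share of members with a UMI differed less, at 34.6% (17.2 to 55.7%) and 26.3% (18.5 to 35.4%), and these intervals overlap. B-gated cells moved the same way, with 404 and 25.3 CPM of Retnla, as did monocyte-like cells, with 4479 and 271. The part of free RNA in the members' difference was not tested. The receptor genes of alternative activation differed less: Mrc1 had a ratio of 0.810 (0.641 to 1.03) and Cd163 of 1.32 (0.831 to 2.20). In the list 2 of 8 measured genes were past 2-fold lower (Retnla and Ccl24), beside 4.34% of all genes, and 0 higher.

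Lyz1, the second mouse lysozyme gene, gave 122 UMIs in 17 chow members and 71 UMIs in 28 WD members, a ratio of 0.162 (0.119 to 0.218). It shares much of its sequence with Lyz2, whose ratio was 0.818, so reads of the pair can be split unevenly and the Lyz1 value is uncertain. Lyz1 was also lower in the WD cells of the B gate (130 and 1.18 CPM) and in low-resident cells (391 and 25.7). AY036118 (156 and 35.0 CPM) and the pseudogene Rpl9-ps6 (319 and 112) were lower in WD members and in the B gate as well, the latter uncertain because it shares sequence with its parent gene. The same direction in the B gate was thus seen for Retnla, Lyz1, AY036118 and Rpl9-ps6.

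Inflammatory genes were mixed, with 1 of 22 measured genes past 2-fold higher in WD members, 5 lower (22.7%, beside 4.34% of all genes) and a median of -0.17. Il1rn, the secreted antagonist of the interleukin 1 receptor, gave 64 UMIs in 10 chow members and 59 in 21 WD members, 385 and 98.5 CPM, a ratio of 0.256 (0.177 to 0.370). Nlrp3, the inflammasome sensor, gave 265 and 96.8 CPM, a ratio of 0.366 (0.243 to 0.554). Il1b summed over the members was level, at 463 and 456 CPM, a ratio of 0.984 (0.762 to 1.28), but this rests on few cells. Of its 77 chow UMIs, found in 6 members, 45 came from 1 cell. Of its 273 WD UMIs, found in 31 members, 65.9% came from 3 cells. Il1b was lower in WD low-resident cells (2484 and 1382) and higher in WD dendritic cells (1414 and 3760). Gdf15, a stress-induced cytokine, gave 71 and 79 UMIs, a ratio of 0.309 (0.221 to 0.432), with 85.9% of the chow UMIs in 3 members. Without those 3 cells the Gdf15 ratio was 1.97 (1.02 to 4.26), that of Il1rn without its richest 3 was 0.588 (0.362 to 0.979), and that of Nlrp3 was 0.735 (0.432 to 1.31). Il10, an anti-inflammatory cytokine, was the gene past 2-fold higher, with 2 and 32 UMIs, a ratio of 4.44 (1.13 to 38.2). Low-resident cells went the other way, with 10 and 10 Il10 UMIs, a WD over chow ratio of 0.268 (0.100 to 0.717). The lower Il6 and Cxcl1 of WD members rested on the richest chow cell of each gene, which held 17 of 18 Il6 UMIs and 116 of 139 Cxcl1 UMIs. Without the richest cell of each library their log2 ratios turned from -2.90 to 0.63 and from -1.29 to 0.90. The median over all genes was 0.27 in that setting.

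Among the other genes higher in WD members, Spp1 gave 1 and 74 UMIs in 1 and 10 members, a ratio of 20.5 (3.57 to 822). Spp1 was thus found in few members of either diet. Low-resident and B-gated cells also had more Spp1 in the WD library (281 and 2538, and 3.06 and 63.0 CPM), the low-resident WD level being 498 CPM without its richest 3 cells. Without the richest 3 WD members the members' ratio was 5.51 (0.875 to 229). Ly6a, which is also abundant in B-gated cells, gave 2 and 115 UMIs in 1 and 19 members, and Gdf3, a growth factor of the transforming growth factor beta family, gave 1 and 32. Ccl8, a resident macrophage chemokine, gave 18 UMIs in 4 chow members and 185 in 33 WD members, a ratio of 2.85 (1.76 to 4.92). Cd72, an inhibitory receptor gene, gave 5 and 109 UMIs in 3 and 36 members, a ratio of 6.05 (2.52 to 19.0), and Fcgr4, an activating Fc receptor gene, 4 and 60 in 3 and 26 members, a ratio of 4.16 (1.54 to 15.8). Of 8 measured proliferation genes 3 were past 2-fold higher (7.53% of all genes were), Top2a (1 and 19 UMIs), Stmn1 (4 and 51) and Hist1h2ap (1 and 59), with 37 of the 59 Hist1h2ap UMIs in 1 cell and a Top2a interval that included a ratio of 1 (0.838 to 219). Mki67, the common cycling marker, had 2 and 8 UMIs in 2 and 4 members.

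Most other lists held few or no genes past 2-fold between the diets in the members. Of all genes, 7.53% were higher and 4.34% lower, so a count of 0 among about 10 genes is near the background. Genes of apoptotic cell uptake had 1 of 14 past 2-fold higher (Axl) and 3 lower (Timd4, Itgav and Elmo1, 21.4%). The intervals of Timd4 and Itgav included a ratio of 1. Of 26 measured early response genes, 0 were past 2-fold in either direction, with a median of 0.00. The same count was 0 of 24 for oxidative phosphorylation (median -0.05), 0 of 9 for complement (0.01), 0 of 10 for MHC class II (0.10) and 0 of 22 for macrophage growth factor and cytokine receptors (-0.01). Lysosome genes had 1 of 31 past 2-fold higher (Man2b1) and 1 lower (Lyz1). Genes of cholesterol handling had 0 of 13 past 2-fold higher and 1 lower, Lpl, lipoprotein lipase, with 43 UMIs in 3 chow members and 29 in 14 WD members. Csf1r stood at 926 and 859 CPM, a ratio of 0.928 (0.774 to 1.12), and Adgre1 at 433 and 501, a ratio of 1.16 (0.891 to 1.52).

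**Figure D5:**
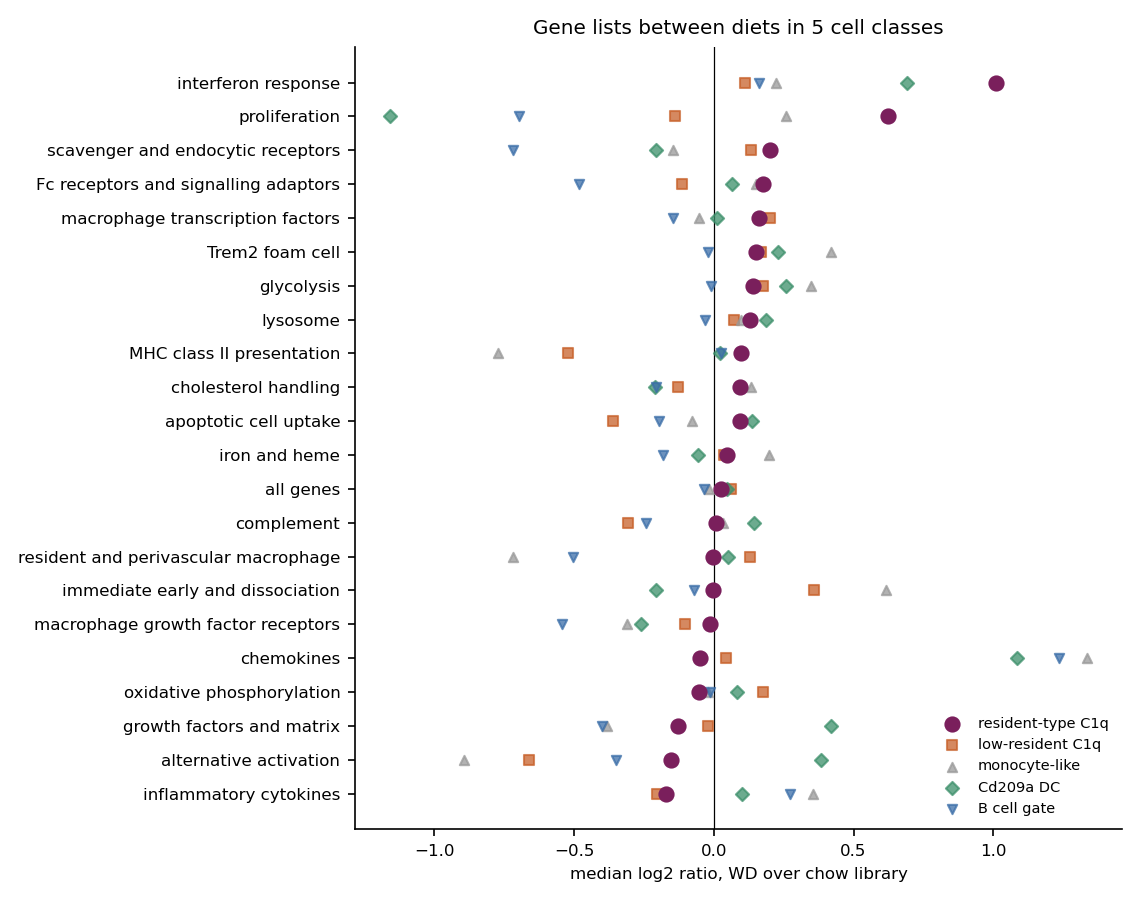
Median log2 ratio of WD over chow for each gene list in 5 cell classes (lists with at least 5 measured genes), sorted by the resident-type cells, which are the large circles. The interferon response list lies highest for the resident-type cells at 1.01, beside 0.11 in low-resident cells, and most other lists lie near 0 in the resident-type cells.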

How the data were processed

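The deposited matrices hold whole-number UMI counts per gene and cell barcode, not normalized. Per the submitters' processing notes, the authors used Cell Ranger, STAR and mm10; their version numbers were not stated in these sources. Per the labels' protocols, libraries were made with the 10x 3' v2 kit, 1 for each diet. Counts were read in Python 3.11.15 with numpy 2.4.6, scipy 1.17.1 and pandas 2.3.3. All 27998 genes were read, and mouse symbols were matched by identifier for 27645.

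Cells with at least 200 genes and at most 10% mitochondrial UMIs were kept. Monocyte-like cells had a C1q sum of at most 4 and at least 2 UMIs of Thbs1 and F10; Cd209a dendritic cells had at most 4 C1q UMIs, at most 1 of Thbs1 and F10 and at least 2 of Cd209a; B-gated cells had at least 3 UMIs of Cd79a, Cd79b and Ms4a1 and at most 2 of the Cd3 genes. UMIs were summed per class and library and divided by the class total (CPM, UMIs per 1000000). Ratios carry exact conditional binomial intervals, shares exact Clopper-Pearson intervals. Log2 ratios had 0.5 UMIs added. Genes needed 20 UMIs to be measured. A group at 0 was set to a floor of 3 counts. Cells are not replicates, so no test was made. The ratio and interval code was tested on simulated data. Scrublet was run through scanpy 1.11.5, and its calls were kept. Doublets can remain.

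The members and the 21 gene lists were chosen with earlier results of these data known. Named genes are the 20 with the most UMIs; the 12 highest and 12 lowest between diets (at least 30 UMIs, interval excluding 1, 5 cells in the higher library, and past 1.5-fold without the richest cell); the 20 highest and 12 lowest against low-resident cells; list members past 2-fold or among the 8 most abundant; and markers. Of 453 list genes 5 were not read. Alternatives changed the filters, the rule's limits, depth, scaling, summing, fold and minimum. Some list genes are counted but not reported by name here.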

Additional observations from a re-analysis of the deposited data

Results flagged for a closer look

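Clec4d, a C-type lectin gene of myeloid cells, went opposite ways in the libraries when members were set against low-resident C1q cells. Its log2 ratio was 1.40 in the chow library, where members gave 28 UMIs and low-resident cells 9, and -1.09 in the WD library, where they gave 22 and 43. The difference between the libraries was not tested.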

How the results depend on the processing

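No paired analysis was possible because each diet has 1 library, and no replicate could be left out. With T and B cell sums of 0 in place of at most 2, members were 1.67% of kept chow cells and 4.46% of WD cells, and 31 genes were lower than in low-resident cells. With every cell thinned to 2000 UMIs, members were 33.3% and 44.2% of C1q cells; 151 genes were higher and 67 lower in WD members, and 18 higher and 21 lower than in low-resident cells, out of fewer genes measured. Without F13a1 in the resident sum, an alternative chosen after seeing the data, members were 4.56% of WD cells and 44.5% of WD C1q cells. At 3-fold the counts were 108 and 28 between diets and 20 and 17 between classes; with at least 50 UMIs they were 62 and 34, and 27 and 22. The WD share of members among kept cells was above the chow share in every alternative run. Without the richest cell of each gene in each library the median over all genes moved from 0.02 to 0.27. This takes 1 of 26 chow but 1 of 114 WD cells with the class totals unchanged, so a general upward move is built in. Cxcl1 turned to 0.90 and Il6 to 0.63, and the interferon list stood at 1.49. Rgcc, -2.06 in the main values, stood at -0.92. How much of each of these moves is built in was not tested. Leaving out the richest cells of the higher class or library only, chosen after seeing the data, lowers each difference by construction. Of 28 named genes past 2-fold higher than in low-resident cells in both libraries, 24 stayed so without the richest cell and 21 without the richest 3, and of 21 lower genes 18 and 16. In the chow library Cxcl1 then turned to -0.054 and -1.78, and without 3 cells Clec10a to -0.66 and Ccl4 to 0.49; between the diets Gdf15 turned to 0.96 without 3 cells. The interferon list median was 1.09 as a mean over cells and 1.00 with 1 UMI added. With 26 chow members, a chow count of 0 allows up to 3 UMIs.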

Other observations

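In the iron and heme list, 1 of 10 measured genes (Cd163) was past 2-fold higher in members than in low-resident cells in both libraries. Of its genes, 0 were lower. Of all 1981 measured genes, 3.03% were higher and 2.42% lower, so 1 gene of 10 is near the background. The list had a median log2 ratio of 0.88 in the chow library and 0.74 in the WD library. Hmox1, which degrades heme, stood at 685 and 693 CPM in members and at 295 and 390 in low-resident cells, ratios of 2.32 and 1.78. Trf, transferrin, stood at 968 and 1192 against 515 and 557. Between the diets the members differed by less than 1.5-fold in both genes, with WD over chow ratios of 1.01 (0.819 to 1.25) and 1.23 (1.04 to 1.47).

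Igf1, a growth factor of resident macrophages, was higher in members than in low-resident cells in the chow library (210 and 96.1 CPM) and lower in the WD library (189 and 252). Nrp1, a semaphorin and growth factor receptor, was higher in members of both libraries, with ratios of 2.19 and 2.84. Ccnd1, a cyclin of the first gap phase, gave 3 UMIs in 3 chow members and 73 in 31 WD members, a ratio of 6.75 (2.22 to 33.5); it and Plac8 (6 UMIs in 1 chow member and 137 in 16 WD members) were picked after their values were seen. Across members Retnla was the gene with the widest spread for its level in the WD library, with a variance 176 times that of counting alone, against a median of 1.19 over 2451 genes.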
